A study of Homo sapiens with 6 samples.

Results

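The genes described here encode 8 proteins of the red cell membrane and surface: the glycophorins GYPB and GYPC, the Rh-associated glycoprotein RHAG, the Kell antigen KEL, the anion exchanger SLC4A1 (band 3), its anchors ANK1 (ankyrin) and EPB42 (protein 4.2), and the erythropoietin receptor EPOR. They were found as the rows of the raw count table whose Ensembl identifiers map to these symbols, 8 of 61661 rows, and were read in all 6 libraries. SLC4A1 rose 2.20-fold in METTL3-knockdown cells, where EPOR also rose, 1.28-fold. In METTL14-knockdown cells, EPOR rose 1.32-fold, GYPC 1.28-fold and ANK1 1.15-fold. RHAG, KEL and EPB42 passed the test in neither knockdown, and GYPB passed it only between the 2 knockdowns. The rise of SLC4A1 passed with each library left out in turn, whereas the other calls were lost without at least 1 of the libraries.

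The red cell membrane is held to a spectrin and actin skeleton at 2 kinds of protein complex. In one, band 3 is tied to spectrin through ankyrin, with protein 4.2 and the Rh proteins, including RHAG, in the same complex. In the other, glycophorin C is tied through protein 4.1. GYPB, GYPC and KEL carry blood group antigens (the Ss, Gerbich and Kell systems), and RHAG is required for Rh antigens to reach the surface. EPOR receives erythropoietin, the hormone of red cell production, and signals through the kinase JAK2 to STAT5. Many red cell genes are turned on by GATA1, which binds GATA motifs, and by KLF1, which binds CACCC-type motifs.

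RNA-seq was performed on K562 cells, an erythroleukemia-like line that was derived from the pleural effusion of a patient with chronic myeloid leukemia in blast phase and expresses embryonic and fetal globin genes. METTL3 and METTL14 form the core of the enzyme that writes N6-methyladenosine (m6A) on mRNA. There were 3 groups with 2 libraries each: shCTR (control shRNA, labelled wild type), shMETTL3 (METTL3 knockdown) and shMETTL14 (METTL14 knockdown), all cultured in RPMI1640 with serum and collected in logarithmic growth. The study's methods describe shCTR and shMETTL3 as stable lines made by lentiviral infection and puromycin selection, with the shRNA driven by a U6 promoter in a vector that also carries GFP, and the control vector holding a nonsense sequence. No source used here describes how the shMETTL14 line was made, says whether a line is 1 clone or a pool, or says that the 2 libraries of a group came from separate cultures, so p-values measure only the spread between these libraries, which may be technical. Both knockdowns were compared with the same shCTR libraries.

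Libraries held between 19292574 and 20115304 reads. For METTL3, 1788 and 1728 reads were counted in shCTR against 1031 and 938 in shMETTL3, a log2 fold change of -0.87. For METTL14, 656 and 655 reads were counted in shCTR against 375 and 404 in shMETTL14, a log2 fold change of -0.76. Each knockdown thus lowered its own target in both libraries. The 10 K562 markers, mostly globin and heme genes, were all read, but the fetal globins HBG1 and HBG2 had only 10 to 22 and 125 to 138 reads per library. Of 12 megakaryocyte, 12 myeloid and 9 lymphoid markers, 5, 6 and 3 stayed at 3 reads or fewer in every library, among them PF4, GP9, CD14, MPO and CD3E. Others were read above HBG2, among them ITGA2B (211 to 441 reads) and LYZ (310 to 1273 reads). In bulk RNA, fewer cells of a type and less RNA per cell cannot be told apart.

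Sequence upstream of RefSeq starts is shown first. The erythroid GATA motif was shared by all 6 genes with a listed promoter. The choice of genes did not use the motif itself, but it took red cell genes, many of which GATA1 turns on. Promoters in RefSeq on GRCh38.p14, read as the 250 bases before each start, were found for 6 of the 8 genes. The motifs searched on both strands were AGATAA or AGATAG and, with the other first letter that GATA factors accept, TGATAA or TGATAG, and CCNCNCCC for KLF1-type sites, a pattern that also takes in general GC boxes and can match overlapping positions. All 6 genes had a GATA motif, against 26.2% of the 27305 genes in the table (22.3% of 35116 promoters). Both kinds of motif were found in 5 of 6 genes. The share with both over the table, 6.80%, was counted per promoter and not per gene. The 30-base windows below hold each GATA match, in capitals, on the strand of the gene.
GYPB (chr4:144019405-144019434, minus): tgcctcccctgcCTATCAgctgatgatggc
GYPB (chr4:144019367-144019396, minus): ggtgggcctggaAGATAAcagctagtaggc
GYPC (chr2:126656082-126656111, plus): aatgaagtctgcCTATCTccgggccagagc
EPOR (chr19:11384375-11384404, minus): cccgccaggcacTTATCTctacccaggctg
EPB42 (chr15:43221209-43221238, minus): ccagtgcagtccAGATAAcatctctgagag
EPB42 (chr15:43221062-43221091, minus): tcctggcacaagAGATAAaatgaacagggt
RHAG (chr6:49636853-49636882, minus): agtcctttgttcTTATCAacatctcacagc
KEL (chr7:142962408-142962437, minus): cctgagaagctgAGATAAagggggaggaga
KEL (chr7:142962372-142962401, minus): ggtgccccccacTGATAAgcaggctccacc
In EPOR the match began 78 bases before the start, in GYPC 64 and in RHAG 31. EPB42 and KEL had 2 matches each, and GYPB had 2 upstream of the more downstream of its 2 listed starts. CCNCNCCC was found in every one of these promoters except those of GYPB, and in 53.4% of the 35116 promoters in the table. Starts here are RefSeq starts, some of which lie inside the GENCODE gene spans given next. The windows of GYPC, RHAG and KEL, and the EPB42 window at chr15:43221062-43221091, lie within those spans. A match is a description of the letters, and binding was not measured.

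The genes lie on 8 different chromosomes. In GENCODE release 29 on GRCh38, GYPB (ENSG00000250361) spans chr4:143996104-144019345, GYPC (ENSG00000136732) chr2:126655933-126696670, EPOR (ENSG00000187266) chr19:11377205-11384342, SLC4A1 (ENSG00000004939) chr17:44248385-44268141, ANK1 (ENSG00000029534) chr8:41653220-41896762, EPB42 (ENSG00000166947) chr15:43197227-43221125, RHAG (ENSG00000112077) chr6:49605158-49636884 and KEL (ENSG00000197993) chr7:142941114-142962681. All are on the minus strand except GYPC. Their longest transcripts ran from 521 nt in 5 exons (GYPB) to 8478 nt in 43 exons (ANK1).

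Levels differed far more between the genes than between the groups. Scaled to library size and divided by transcript length, the shCTR means in CPM (read counts relative to the TMM-scaled library size) per kb were 335 for RHAG, 115 for GYPC, 58.9 for GYPB, 27.0 for ANK1, 23.8 for KEL and 10.5 for EPOR. SLC4A1 and EPB42 stood at 0.285 and 0.240, and EPOR was 36.9-fold above SLC4A1 in shCTR. RHAG thus lay above 99.1% of the 16662 tested genes with a transcript length, while SLC4A1 lay above 7.38% and EPB42 above 6.00%. Over the 6 libraries, the ranges of neighbours in this order were separate except for SLC4A1 and EPB42, whose ranges overlapped. K562 cells therefore held abundant RNA for RHAG and GYPC, and little for band 3 and protein 4.2. The place of GYPB rests on division by a 521-nt transcript and on an uncertain split of reads with its paralogs. Before that division its shCTR mean was 30.7 CPM, below KEL at 66.9 and ANK1 at 229.

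**Figure D1:**
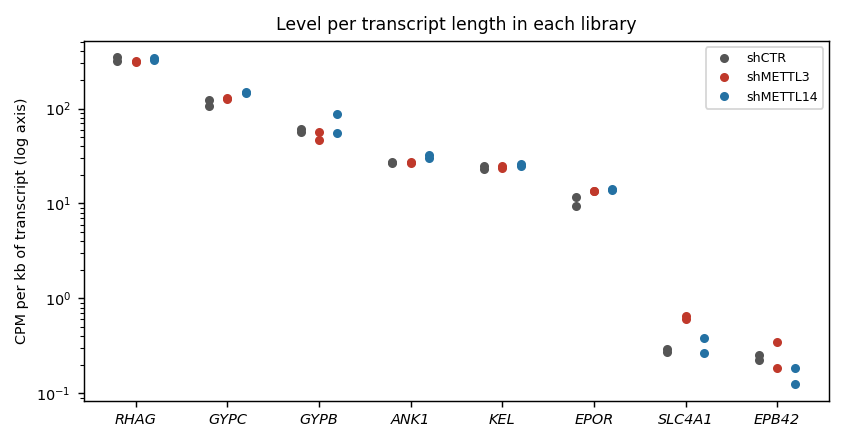
Level of each gene in CPM per kb of its longest transcript (log axis), 1 point per library, coloured by group. RHAG lies between 306 and 349, and SLC4A1 and EPB42 are at or below 0.653 in every library.

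All 8 genes passed the filter on low counts. A gene was called where the p of edgeR's quasi-likelihood test, adjusted by the Benjamini-Hochberg method over all genes tested, was under 0.05. In shMETTL3 against shCTR, 2 of the 8 genes were called, both higher, against a background of 16.5% of 17686 genes tested (8.73% higher and 7.73% lower). In shMETTL14 against shCTR, 3 of 8 were called, all higher, against 6.69% (3.43% higher and 3.26% lower). Between shMETTL3 and shMETTL14, 4 of 8 were called, 1 higher and 3 lower in shMETTL3, against 12.1% (6.65% higher and 5.49% lower). The median log2 fold change of the 8 genes was 0.09 in shMETTL3 and 0.19 in shMETTL14, with medians over all genes of 0.0030 and -0.00014. Scaling by library size alone moved the split of all calls from 1544 higher and 1368 lower to 2158 and 858 in shMETTL3, from 607 and 577 to 743 and 443 in shMETTL14, and from 1177 and 971 to 1399 and 754 between the knockdowns.

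**Figure D2:**
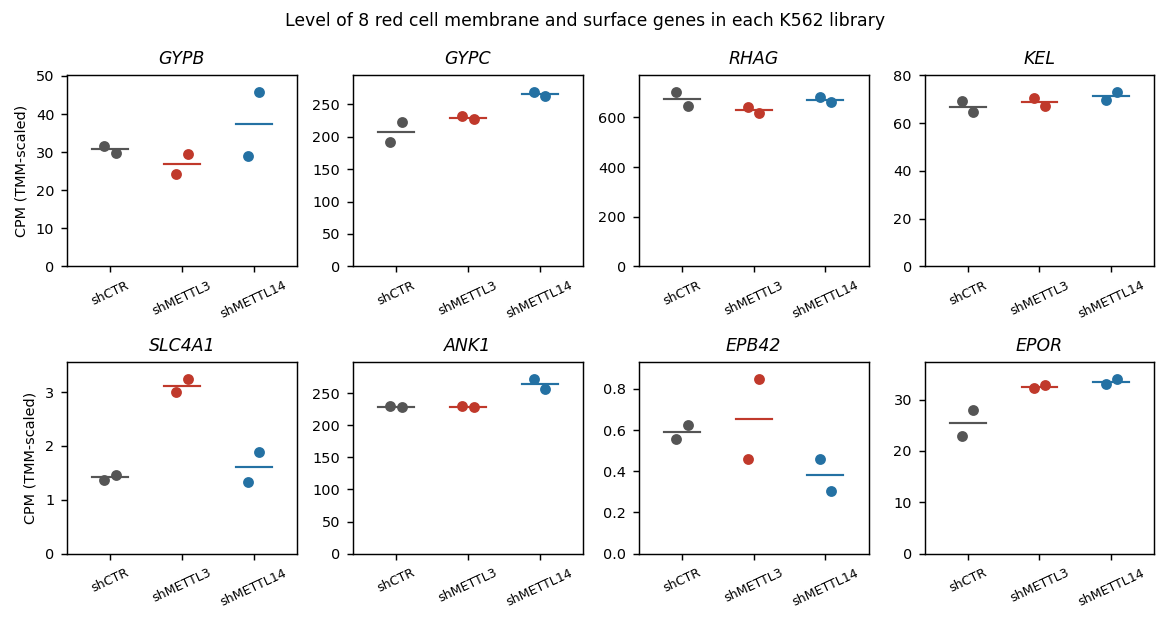
CPM (scaled by TMM factors) of each gene by group, 1 point per library, with a bar at the group mean and each axis from 0. Both shMETTL3 libraries are above all others for SLC4A1, both shMETTL14 libraries are above all others for GYPC and ANK1, and the points for RHAG and KEL lie close together.

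Among the glycophorins, GYPC and GYPB showed different patterns. GYPC, which carries the Gerbich antigens and holds protein 4.1 to the membrane, was read at 192 and 223 CPM in shCTR, 232 and 227 in shMETTL3, and 269 and 263 in shMETTL14. Every shMETTL14 library was above every shMETTL3 library, and these in turn were above both shCTR libraries. The rise in shMETTL14 was 0.36 on the log2 scale (standard error 0.0672, edgeR adjusted p = 0.00222). In shMETTL3 the log2 difference was 0.14 (95% interval 0.0031 to 0.28) and did not pass the test (edgeR adjusted p = 0.157). The difference between the knockdowns was itself past the threshold, with GYPC lower in shMETTL3 by a log2 fold change of -0.22 (edgeR adjusted p = 0.0407). The shCTR libraries were the farthest apart for this gene. Without shCTR replicate 2, the shMETTL3 difference was 0.26 (edgeR adjusted p = 0.00534), and scaling by library size alone also took it past the threshold (0.20, edgeR adjusted p = 0.0469). Without shMETTL14 replicate 1, the rise in shMETTL14 was 0.34 and no longer passed (edgeR adjusted p = 0.0658). The difference between the knockdowns no longer passed when any 1 of the 4 knockdown libraries was left out (edgeR adjusted p from 0.156 to 0.254).

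GYPB, which carries the Ss antigens, was read at 31.6 and 29.8 CPM in shCTR, 24.3 and 29.5 in shMETTL3, and 28.9 and 45.8 in shMETTL14. The second shMETTL14 library stood apart from the other 5, and the ranges of the knockdown groups overlapped. Against shCTR, the log2 difference was -0.19 (standard error 0.145) in shMETTL3 and 0.28 (standard error 0.141) in shMETTL14, and neither passed the test (edgeR adjusted p = 0.406 and 0.263). Between the knockdowns, GYPB was lower in shMETTL3 by a log2 fold change of -0.47 (edgeR adjusted p = 0.0339). That call was lost without shMETTL14 replicate 2, where the difference was -0.10 (edgeR adjusted p = 0.752), and without shMETTL3 replicate 1, where it was -0.34 (edgeR adjusted p = 0.281), and DESeq2 gave an adjusted p of 0.404. Without shMETTL14 replicate 1, GYPB in shMETTL14 was higher than in shCTR (0.58, edgeR adjusted p = 0.0155), and without replicate 2 the value turned to -0.09. With the GC and length trend removed and a replicate block, the shMETTL14 value was 0.30 (edgeR adjusted p = 0.0376).

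GYPB shares nearly all of its sequence with neighbouring paralogs, among them GYPE, so how the authors' counting divided reads between them is uncertain. GYPE was read at 77.7 and 72.2 CPM in shCTR, 63.6 and 66.3 in shMETTL3, and 87.9 and 92.1 in shMETTL14. Its shMETTL3 libraries were the lowest and its shMETTL14 libraries the highest. GYPE fell in shMETTL3 (log2 fold change -0.21, edgeR adjusted p = 0.0442) and rose in shMETTL14 (0.26, edgeR adjusted p = 0.0216).

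RHAG was the most abundant of the 8 genes and was read at 702 and 645 CPM in shCTR, 641 and 616 in shMETTL3, and 682 and 662 in shMETTL14. The shMETTL3 libraries were the lowest, by a margin smaller than the gap between the shCTR libraries. The log2 difference was -0.10 (95% interval -0.22 to 0.02) in shMETTL3 and -0.0039 (95% interval -0.12 to 0.12) in shMETTL14, with edgeR adjusted p = 0.251 and 0.982. With between 12353 and 13879 reads per library, these intervals were the narrowest of the 8 genes, and the fold change in shMETTL3 lay between 0.858 and 1.01.

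KEL, the endopeptidase that carries the Kell antigens, was read at 69.1 and 64.7 CPM in shCTR, 70.4 and 67.2 in shMETTL3, and 69.9 and 73.0 in shMETTL14. The shCTR and shMETTL3 ranges overlapped, and both shMETTL14 libraries were above shCTR by less than 10 CPM. The log2 difference was 0.04 (95% interval -0.10 to 0.18) in shMETTL3 and 0.10 (95% interval -0.05 to 0.24) in shMETTL14, with edgeR adjusted p = 0.745 and 0.468. XK, the protein to which Kell is joined at the surface, fell in shMETTL3 (log2 fold change -0.36, edgeR adjusted p = 0.000659) and was at 0.02 in shMETTL14 (edgeR adjusted p = 0.922).

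The band 3 complex held the largest change. SLC4A1, the chloride and bicarbonate exchanger that is the main integral protein of the mature red cell membrane, had 27 and 28 reads in shCTR, 59 and 65 in shMETTL3, and 26 and 37 in shMETTL14. Its level was 1.41 ± 0.0680 CPM (SD, n = 2) in shCTR, 3.12 ± 0.167 in shMETTL3 and 1.61 ± 0.399 in shMETTL14. Both shMETTL3 libraries were above the other 4, and the shMETTL14 range took in the shCTR range. The rise in shMETTL3 was 1.14 on the log2 scale (95% interval 0.59 to 1.69, edgeR adjusted p = 0.00531), and it passed under each of the 14 alternative settings and left-out libraries, with values from 1.04 to 1.19 and adjusted p up to 0.0495. In shMETTL14 the log2 difference was 0.18 (95% interval -0.42 to 0.79, edgeR adjusted p = 0.780). The change in shMETTL3 was 0.96 higher on the log2 scale than in shMETTL14 (edgeR adjusted p = 0.0169). Without shMETTL3 replicate 1, shMETTL3 replicate 2 or shMETTL14 replicate 1, this difference was 1.01, 0.90 and 0.72 and did not pass (edgeR adjusted p = 0.0587, 0.113 and 0.197), nor did it by DESeq2 (adjusted p = 0.132).

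ANK1, which links band 3 to spectrin, was read at 229.3 and 228.8 CPM in shCTR, 230.0 and 228.5 in shMETTL3, and 272 and 256 in shMETTL14. The shCTR and shMETTL3 libraries lay within 2 CPM of each other, and both shMETTL14 libraries were above them. In shMETTL3 the log2 difference was 0.0015 (95% interval -0.12 to 0.12, edgeR adjusted p = 0.988). In shMETTL14 ANK1 rose by 0.20 on the log2 scale (standard error 0.0587, edgeR adjusted p = 0.0415), close to the threshold. That call did not pass without any 1 library other than shCTR replicate 2 (edgeR adjusted p from 0.0624 to 0.397), nor with no filter (0.0808), with the compared groups only (0.0852) or with a trend on GC content and length removed (0.0785). ANK1 has the longest transcript of the 8 genes, and removing that trend also moved its shMETTL3 value to -0.18 (edgeR adjusted p = 0.00737). Between the knockdowns, ANK1 was lower in shMETTL3 (log2 fold change -0.20, edgeR adjusted p = 0.0273), a call that any left-out knockdown library ended (edgeR adjusted p from 0.0782 to 0.287). An antisense gene shares 842 nt of exon with ANK1 and had at most 11 reads in a library.

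EPB42, a transglutaminase-like protein without enzyme activity that steadies the band 3 complex, had 11 and 12 reads in shCTR, 9 and 17 in shMETTL3, and 9 and 6 in shMETTL14. The shMETTL14 libraries were the lowest together with 1 shMETTL3 library. At this depth no change was detectable: the log2 difference was 0.14 in shMETTL3 (95% interval -0.84 to 1.13) and -0.62 in shMETTL14 (95% interval -1.72 to 0.48), with edgeR adjusted p = 0.874 and 0.550. The 3 parts of the band 3 complex thus gave separate results in shMETTL3: band 3 rose, ankyrin had an interval of -0.12 to 0.12, and protein 4.2 was too low to tell.

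EPOR was the only one of the 8 genes called in both knockdowns. It had 451 and 536 reads in shCTR, 635 and 658 in shMETTL3, and 650 and 666 in shMETTL14, or 22.8 and 28.0 CPM, 32.3 and 32.8 CPM, and 33.1 and 34.0 CPM. All 4 knockdown libraries were above both shCTR libraries and lay within 2 CPM of each other. The rise was 0.36 on the log2 scale in shMETTL3 (standard error 0.0944, edgeR adjusted p = 0.0129) and 0.40 in shMETTL14 (standard error 0.0943, edgeR adjusted p = 0.0127). The knockdowns did not pass a test against each other (log2 difference -0.04, 95% interval -0.23 to 0.15, edgeR adjusted p = 0.827). Since both comparisons use the same shCTR pair, they are not separate evidence. Without shCTR replicate 1, the lower of that pair, the rises were 0.22 (edgeR adjusted p = 0.126) and 0.26 (edgeR adjusted p = 0.116). Without 1 of the compared knockdown libraries, they were 0.37 and 0.35 in shMETTL3 (edgeR adjusted p = 0.0626 and 0.0973) and 0.42 and 0.38 in shMETTL14 (edgeR adjusted p = 0.120 and 0.141).

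**Figure D3:**
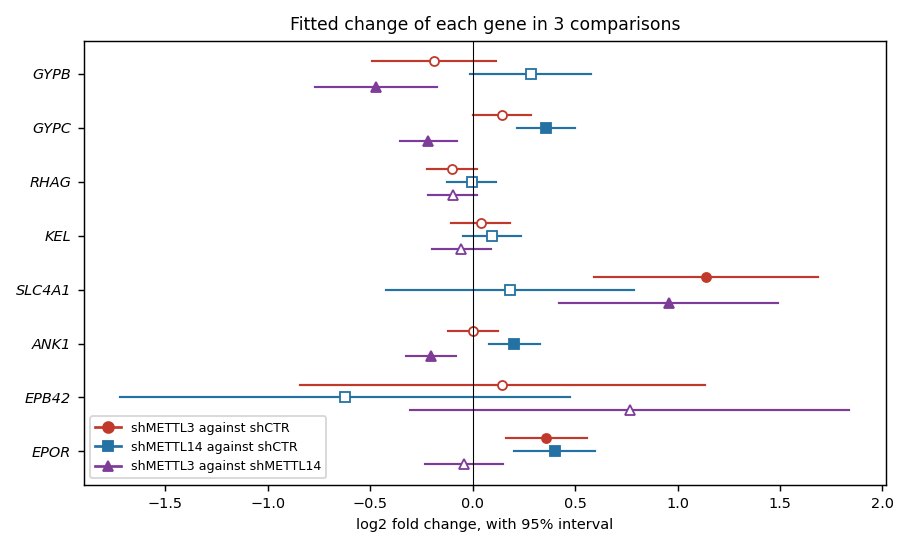
Fitted log2 fold change of each gene in 3 comparisons, with 95% intervals. Filled symbols passed the test (adjusted p under 0.05). SLC4A1 in shMETTL3 is the largest called change at 1.14, EPOR is called in both knockdowns, and EPB42 has the widest intervals.

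Among genes of the EPO receptor pathway, the inhibitors CISH and SOCS1 rose in both knockdowns, and the receptor's kinase JAK2 fell in shMETTL3. Signaling by EPOR was not measured, EPO itself had 1 to 5 reads per library, and whether these changes depended on EPOR was not tested. Of 24 tested genes of EPO receptor signaling and its co-receptors, 4 rose and 6 fell in shMETTL3, and 2 rose and 1 fell in shMETTL14. Over all tested genes, the share called was 16.5% in shMETTL3 and 6.69% in shMETTL14. The STAT5 target CISH, which restrains the receptor, was at 116 and 119 CPM in shCTR, 167 and 167 in shMETTL3, and 153 and 165 in shMETTL14, log2 fold changes of 0.51 (edgeR adjusted p = 1.46e-05) and 0.44 (edgeR adjusted p = 0.000145). SOCS1, an inhibitor of JAK kinases, rose by 0.59 and 0.93. SOCS3 rose by 0.54 in shMETTL3 and was at 0.37 in shMETTL14 (edgeR adjusted p = 0.0985). JAK2, the kinase bound to EPOR, fell by 0.38 in shMETTL3 and was at -0.11 in shMETTL14 (edgeR adjusted p = 0.394). TFR2, a transferrin receptor that associates with EPOR, fell by 0.52 in shMETTL3 and was at -0.02 in shMETTL14. KIT, the stem cell factor receptor that is lost as erythroid cells mature, fell by 1.01 in shMETTL3 and by 0.54 in shMETTL14. STAT5A, STAT5B and BCL2L1, a survival gene induced by STAT5, were called in neither knockdown.

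Among the other genes of the membrane skeleton, 2 of 16 rose and 5 fell in shMETTL3, and 2 rose and 1 fell in shMETTL14. Over all tested genes, 16.5% were called in shMETTL3 and 6.69% in shMETTL14. DMTN (dematin), which bundles actin, was at 26.5 and 29.4 CPM in shCTR, 48.4 and 46.6 in shMETTL3, and 40.9 and 40.4 in shMETTL14, log2 fold changes of 0.77 (edgeR adjusted p = 2.1e-06) and 0.54 (edgeR adjusted p = 0.000227). STOM (stomatin) rose by 0.74 in shMETTL3. ADD2 (beta-adducin) fell by 0.28 in shMETTL3 and by 0.50 in shMETTL14, and MPP1, which joins glycophorin C to protein 4.1, fell by 0.41 in shMETTL3. SPTB, the beta-spectrin to which ankyrin binds, rose by 0.25 in shMETTL14 (edgeR adjusted p = 0.0165) and was at 0.04 in shMETTL3 (edgeR adjusted p = 0.720). EPB41 (protein 4.1) fell by 0.21 in shMETTL3. The skeleton genes therefore moved in both directions in shMETTL3.

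Of 20 tested blood group and other surface genes, 4 rose and 7 fell in shMETTL3, and 8 rose and 1 fell in shMETTL14. RHCE, which carries the C/c and E/e antigens, rose by 1.08 in shMETTL3 and 0.84 in shMETTL14, and RHD by 0.74 and 0.52. These 2 genes are near-identical copies, so the division of reads between them is uncertain, and RHAG, the protein they assemble with, was called in neither knockdown. ABCG2, the Junior antigen and a porphyrin exporter, was at 17.5 and 16.3 CPM in shCTR, 8.60 and 8.77 in shMETTL3, and 34.4 and 38.5 in shMETTL14. It fell in shMETTL3 (log2 fold change -0.96) and rose in shMETTL14 (1.11), and the difference between the knockdowns was -2.07 (edgeR adjusted p = 8.97e-11). BCAM, the Lutheran antigen, rose by 0.89 in shMETTL3, SEMA7A rose by 0.61 in shMETTL14, and CD47, the signal that protects cells from phagocytosis, fell by 0.33 and 0.44.

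Of 14 tested transport genes, 2 rose and 1 fell in shMETTL3, and 2 rose and 2 fell in shMETTL14. The glycerol and water channel AQP3 rose in both, by 0.66 and 0.92. SLC2A1, the main glucose transporter, rose by 0.25 in shMETTL3. In shMETTL14, the Gardos channel KCNN4 rose by 0.53 and the calcium pump ATP2B4 fell by 0.31. Over these 4 lists of related genes, 12 of 74 rose and 19 fell in shMETTL3 (median log2 fold change -0.0018), and 14 rose and 5 fell in shMETTL14 (0.02), beside the background of 16.5% and 6.69% of genes called. Scaling by library size alone turned the balance in shMETTL3 to 16 higher and 12 lower, and gave 16 and 5 in shMETTL14.

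**Figure D4:**
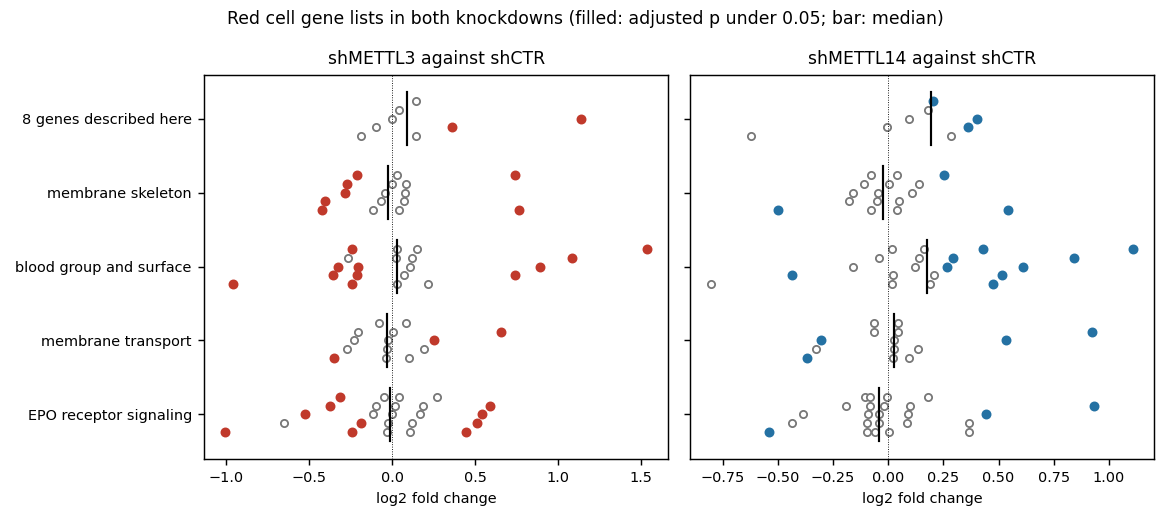
Log2 fold change of each tested gene of 5 lists in both knockdowns. Each circle is 1 gene, filled where its adjusted p is under 0.05, and the vertical bar is the list's median. Called genes lie on both sides of 0 in every list other than the 8 genes. Of these 8, only 2 were called in shMETTL3 and 3 in shMETTL14, all above 0 in this fit. With the GC and length trend removed, 1 of the 8 (ANK1) was called lower in shMETTL3.

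Regulators and markers that moved beside these genes were as follows. Among 8 erythroid transcription regulators, ZFPM1, KLF1 and GFI1B rose and LDB1 fell in shMETTL3, and KLF1 and NFE2 rose and LMO2 fell in shMETTL14. KLF1, which activates many late red cell genes, rose by 0.36 in shMETTL3 (edgeR adjusted p = 0.00221) and by 0.27 in shMETTL14 (edgeR adjusted p = 0.0330), whereas GATA1 was at 0.09 and -0.10 and was called in neither. Of the 10 K562 markers, 5 rose in shMETTL3 (ALAS2, HBZ, HBE1, HBA2 and HBA1) and 2 in shMETTL14 (ALAS2 and HBE1). HBG1, HBG2, GATA1, TAL1 and TFRC were called in neither. The mean of TFRC was 843 CPM in shCTR, 776 in shMETTL3 and 750 in shMETTL14. For the lists in this paragraph and the next, the share called over all tested genes was 16.5% in shMETTL3 and 6.69% in shMETTL14. ALAS2, the first enzyme of heme synthesis in red cells, had log2 fold changes of 1.77 and 1.19.

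Markers of other lineages also differed. The summed level of the 12 megakaryocyte markers was 23.4 to 23.9 CPM in shCTR, 40.3 to 42.4 in shMETTL3 and 25.2 to 25.8 in shMETTL14. Of 5 tested, 3 (ITGB3, TUBB1 and ITGA2B) rose in shMETTL3 and 1 (TUBB1) in shMETTL14. ITGB3 had only 4 and 4 reads in shCTR, 14 and 14 in shMETTL3, and 1 and 1 in shMETTL14. It passed the filter on low counts through shMETTL3 alone, the group where it was high. PF4, PPBP, GP9, GP1BB and SELP were at 3 reads or fewer throughout. The 12 myeloid markers summed to 61.5 to 65.7 CPM in shCTR, 41.0 to 41.1 in shMETTL3 and 92.4 to 99.3 in shMETTL14, with LYZ falling in shMETTL3 and LYZ and CD33 rising in shMETTL14. The lower sum in shMETTL3 was that of LYZ, at a mean of 42.9 CPM in shCTR and 16.0 in shMETTL3. The other 4 of the 5 tested myeloid markers had positive log2 fold changes in shMETTL3, none of them called (median of the 5, 0.28). The 9 lymphoid markers summed to 6.58 to 7.42, 10.2 to 11.4 and 7.63 to 8.06 CPM, and 1 of 3 tested (CD3D) rose in shMETTL3. The part of any of these in the changes of SLC4A1, EPOR, GYPC and ANK1 was not tested.

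The genes whose level over the 6 libraries was most like that of each gene were taken from 105 list genes, by Pearson's r of log2 CPM. With 6 points in 3 groups, r can follow the group means or the scatter between libraries of a group. The values are the highest found among the list genes and are given as a description. ANK1 was most like ERMAP (r = 0.993), which carries the Scianna antigens, and then SPTB (0.970), its spectrin partner. GYPC was most like SOCS1 (0.959), and EPOR like CD151 (0.963) and SOCS1 (0.957). SLC4A1 was most like TPM3 (0.941) and BCAM (0.920), RHAG like SOS1 (0.919), and KEL like PTPN6 (0.866), which had 28 to 44 reads per library.

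GGACT, the most favoured core of the m6A consensus, was counted on the sense strand of each gene's longest transcript. SLC4A1 held 9 (1.82 per kb), of which 5 came after the coding sequence, ANK1 14 (1.65 per kb), EPB42 5 (2.03 per kb), KEL 5 (1.78 per kb) and EPOR 3 (1.24 per kb). RHAG held 2, GYPC 1 and GYPB none. Over 16662 transcripts of tested genes, 85.4% held at least 1, with a median of 0.911 per kb and quartiles of 0.485 and 1.42. SLC4A1, which rose in shMETTL3, ANK1, which rose in shMETTL14, and KEL and EPB42, which were called in neither knockdown, were all above the upper quartile. EPOR, which rose in both, was above the median, and GYPC, which rose in shMETTL14, was below it. Methylation was not measured in these libraries.

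**Figure D5:**
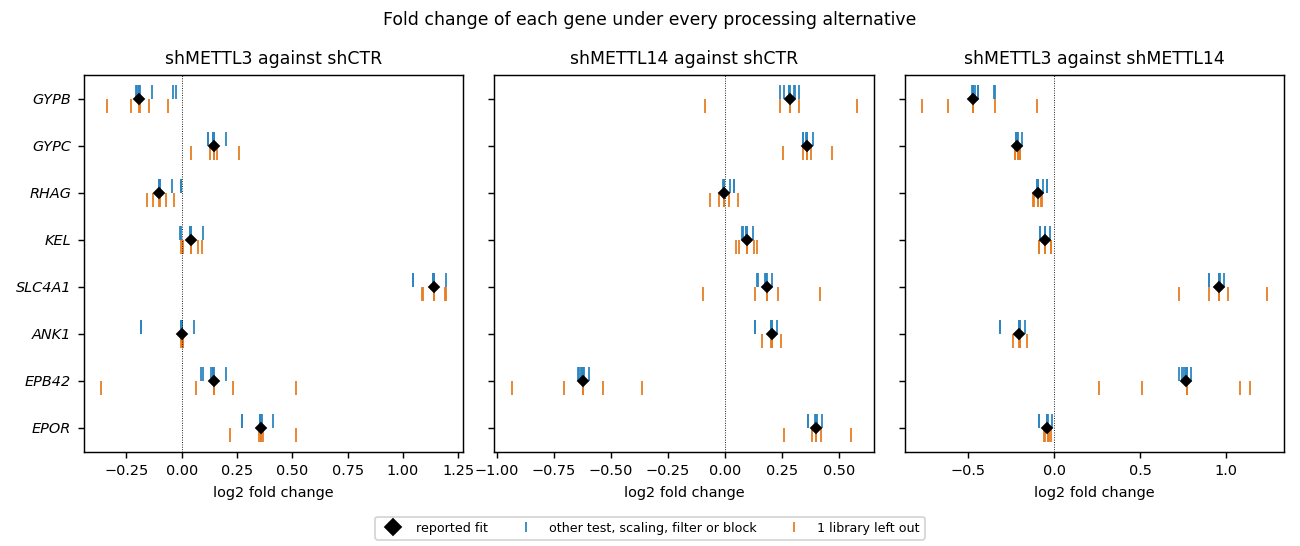
Log2 fold change of each gene under the reported fit (diamonds), other tests, scalings, filters and blocks (blue ticks) and with 1 library left out (orange ticks). SLC4A1 in shMETTL3 stays between 1.04 and 1.19, EPOR stays above 0 in both knockdowns, and GYPB in shMETTL14 turns below 0 without 1 library.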

How the data were processed

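RNA-seq libraries of K562 cells (shCTR, shMETTL3 and shMETTL14, 2 each) were grouped by the submitters' labels. The authors deposited 1 table of raw counts, whole reads per gene, for 61661 identifiers, of which 986 had no Ensembl name (0.635% to 0.703% of reads; kept in library totals). Per the study's methods, mRNA was enriched with oligo(dT) and cDNA was made with random primers; the submitters' processing notes name HTSeq 0.6.1 and hg38. Aligner, annotation release and strand setting are not given in the sources used here, so reads from overlapping antisense genes cannot be told apart.

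The edgeR package (version 4.0.16, under R 4.3.3) was used for the counts. Its filterByExpr step, set to a minimum count of 10, left 17686 genes. TMM factors ran from 0.980 to 1.02, and 1 quasi-likelihood fit over 6 libraries gave 3 comparisons with Benjamini-Hochberg adjustment over all genes tested (threshold 0.05). CPM values are scaled by TMM factors, standard errors come from the F statistic, and intervals are 95%. Libraries of a group differed by more than sampling noise (mean chi-square per gene 2.55 to 5.30). The steps were tested on simulated counts. Symbols were matched for 56558 identifiers in a gene name table and for 497 more in GENCODE 29. Gene length, GC content and GGACT counts are those of the longest GENCODE 29 transcript. Promoters are from RefSeq (GRCh38.p14).

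The 8 genes and the gene lists were chosen with earlier results of these data known. The genes named were the 8 genes, both targets, the up to 3 largest rises and falls per list past the threshold with at least 10 reads in every compared library, and the 2 list genes most correlated with each gene; EPB42, under 10 reads in some libraries, was left out of the last. EPB41, GYPE, CD44, STAT5A, STAT5B, BCL2L1, KLF1, GATA1 and ALAS2, the called regulators and markers, and RHD, XK, SPTB, SOCS3, JAK2 and TFR2 in shMETTL14, were named in addition, after their values were seen. Alternatives were DESeq2 1.42.0, its size factors, library size alone, no filter, a fit on the compared groups alone, a replicate block, removal of a trend on GC content and length (mgcv 1.9.3; 94.2% of tested genes had both), GYPB summed with its paralogs, and each library left out in turn. Some genes that meet the naming rule, and the values that need them, are left out here.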

Additional observations from a re-analysis of the deposited data

Results flagged for a closer look

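Between the knockdowns, 4 of the 8 genes differed past the threshold by edgeR (quasi-likelihood, Benjamini-Hochberg adjusted), which is a test of the difference between their changes from shCTR. SLC4A1 was higher in shMETTL3 than in shMETTL14 by a log2 fold change of 0.96 (adjusted p = 0.0169), with both shMETTL3 libraries above both shMETTL14 libraries. GYPB was lower in shMETTL3 (-0.47, adjusted p = 0.0339), a difference that fell to -0.10 without shMETTL14 replicate 2. GYPC was lower in shMETTL3 (-0.22, adjusted p = 0.0407), and so was ANK1 (-0.20, adjusted p = 0.0273), both with groups that did not overlap. For each of the 4 genes, the call was lost when some single knockdown libraries were left out.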

How the results depend on the processing

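Over 339 alternative values of the 24 fold changes of the 8 genes, 281 kept their direction and side of the threshold, 35 lost a call, 6 gained one and 17 changed sign, of which 2 (ANK1 in shMETTL3 under both GC and length corrections) also gained a call. The 6 were GYPC in shMETTL3 with library size alone and without shCTR replicate 2, and GYPB in shMETTL14 without shMETTL14 replicate 1 and with the GC and length correction and block, all given above, and GYPB summed with its paralogs in each knockdown, not reported here. The sign changed for ANK1 in shMETTL3 under DESeq2 (-0.0016), its size factors (-0.0016), no filter (-0.0023), the GC and length correction (-0.18; -0.18 also with the replicate block) and without shMETTL3 replicate 1 (-0.0030; up to 0.0061 with another library left out). It changed for KEL in shMETTL3 under the GC and length correction (-0.0057; with the block -0.0054) and without shCTR replicate 2 (-0.0043; up to 0.090 with another left out), and for EPB42 without shMETTL3 replicate 2 (-0.36; up to 0.51). In shMETTL14 it changed for RHAG with library size alone (0.022), the GC and length correction (0.038; with the block 0.038), without shCTR replicate 1 (0.057, where without shCTR replicate 2 it was -0.064) and without shMETTL14 replicate 2 (0.017), and without that library also for GYPB (-0.088; up to 0.58 with another left out) and SLC4A1 (-0.096; up to 0.42). Between the knockdowns, DESeq2, library size alone and no filter each called 2 of the 8 genes in place of 4. With 1 library left out, 1 to 3 of the 8 were called in shMETTL3, 1 to 3 in shMETTL14 and 0 to 4 between the knockdowns, where the lowest count was without shMETTL3 replicate 1. Over all genes, DESeq2 called 1881, 763 and 1327 in the 3 comparisons, no filter gave 766 in shMETTL14, and left-out libraries gave 1144 to 3504, 334 to 1888 and 927 to 2911. The 74 related genes gave 19 to 34, 9 to 21 and 15 to 36 calls with a library left out. The cause was not tested.

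Over all tested genes, the differences between replicates 1 and 2 correlated at 0.0614, 0.00511 and -0.0200 between groups. Such values cannot exclude a pairing that acts on some genes, and no source used here says what the replicate numbers mark. As a replicate block, these numbers gave 3264, 1459 and 2478 calls over all genes, against 2912, 1184 and 2148 without it. The block changed no call among the 8 genes. With the GC and length correction, it gave 2232 calls in shMETTL14 and 3664 between the knockdowns, and 29 among the 74 related genes in shMETTL14. With 2 libraries per group, small changes were near the limit of the test, and for EPB42, at 6 to 17 reads, only a large change could have been called. Leaving out a library of a compared group leaves 1 sample there, which is then assumed to vary like the other groups.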
